A study of Mus musculus with 9 samples.

Results

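The genes described here are 10 that mark the disease-associated state of microglia: Gpnmb, Spp1, Trem2, Tyrobp, Clec7a, Itgax, Cd9, Cst7, Lpl and Lgals3. They were chosen by name and looked up in the platform's annotation. Of the 10, 9 had at least 1 probe set annotated to their symbol alone, out of 17097 genes with such a probe set, and Spp1 was not analysed here. Where a gene had more than 1 probe set, the brightest over the 9 arrays stood for it.

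Primary microglia were shaken off mixed glial cultures of C57BL/6J mouse cortices, taken at P0-P2. Microglia labelled control were left untreated, and the others were kept for 6 h in glioma-conditioned medium (GCM) taken fresh from LN18 or U87-MG cells, both established human glioblastoma lines. Each group had 3 replicates, and the RNA of each went onto 1 array of the Affymetrix MG-430 PM Strip system. The paper states for its experiments in general that repeats used independent passages or cultures. All groups shared the neonatal source, the shaken-off culture and serum-containing medium before treatment. No tumour cells were present with these microglia, and how the medium of the untreated cells was handled is not given in the sources used here.

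Microglia around amyloid plaques, demyelinated lesions and dying cells switch on a shared set of lysosomal, lipid-handling and surface genes while genes of the resting state go down. A later step of this switch depends on Trem2, a surface receptor for lipids and lipoproteins, which has no signalling domain of its own and passes its signal through the adaptor Tyrobp (DAP12) to the kinase Syk. Gpnmb and Spp1 (osteopontin) belong to the set and are also found in microglia and macrophages of gliomas.

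The stretches upstream of 4 members are shown here because Clec7a was the member past the test, arrays of Cst7 and Lgals3 did not overlap with the untreated ones in either medium, and Gpnmb leads the set with overlapping groups. Of all genes, 12.8% in GCM LN18 and 10.3% in GCM U87 had every treated array below the untreated ones. Each is the 250 bases before the start of the gene in RefSeq on GRCm38.p6, written 5′ to 3′ on the gene's own strand, and capitals mark the PU-box. The array values carry no genome build, and these stretches were not measured.
Clec7a, chr6:129472786-129473035, minus strand: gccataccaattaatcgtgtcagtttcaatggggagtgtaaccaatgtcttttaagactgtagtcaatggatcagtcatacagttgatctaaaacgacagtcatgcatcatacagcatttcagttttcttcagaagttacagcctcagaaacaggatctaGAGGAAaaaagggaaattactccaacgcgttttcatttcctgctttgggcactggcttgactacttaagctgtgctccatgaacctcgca
Cst7, chr2:150570165-150570414, plus strand: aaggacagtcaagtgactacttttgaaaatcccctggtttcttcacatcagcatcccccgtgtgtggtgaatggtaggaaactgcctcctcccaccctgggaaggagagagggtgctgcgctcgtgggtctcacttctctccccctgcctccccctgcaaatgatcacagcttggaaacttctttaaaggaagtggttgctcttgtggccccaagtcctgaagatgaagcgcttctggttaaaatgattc
Lgals3, chr14:47373610-47373859, plus strand: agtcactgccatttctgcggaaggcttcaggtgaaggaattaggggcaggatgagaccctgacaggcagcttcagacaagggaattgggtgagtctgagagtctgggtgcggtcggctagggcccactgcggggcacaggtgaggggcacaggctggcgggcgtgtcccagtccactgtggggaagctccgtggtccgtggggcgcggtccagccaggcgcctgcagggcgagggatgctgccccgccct
Gpnmb, chr6:49036268-49036517, plus strand: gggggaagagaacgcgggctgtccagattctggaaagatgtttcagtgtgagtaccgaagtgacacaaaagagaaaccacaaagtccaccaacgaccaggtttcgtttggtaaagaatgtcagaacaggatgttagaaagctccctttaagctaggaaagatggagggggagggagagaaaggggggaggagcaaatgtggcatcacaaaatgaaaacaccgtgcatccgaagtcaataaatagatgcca
Of the 10 listed genes, 8 had such a stretch, and Tyrobp and Lpl did not. The PU-box, GAGGAA on either strand, is the core bound by PU.1, the factor on which the macrophage lineage depends. It lay 90 bases before the start of Clec7a, and stretches of Trem2 and Spp1 held it too. Of all 32851 RefSeq stretches of this length, 23.3% held it. The AP-1 site TGANTCA, found in 6.75% of stretches, lay upstream of Trem2 and Itgax. Neither the E-box CACGTG (6.02%) nor the M-box TCATGTG (3.25%), letters bound by the MITF and TFEB family of lysosomal regulators, was present in the 8 stretches.

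The labelled cell type was checked against marker lists. All 12 markers of microglia and macrophages were measured, and their mean log2 signal per array lay at 10.12 to 10.22 in untreated microglia, 10.36 to 10.39 in GCM LN18 and 10.26 to 10.38 in GCM U87, with Cx3cr1 past the test in both media and Aif1 (limma adjusted p = 0.0193, with the replicate block 0.104) and C1qa (0.0254, with the block 0.226) in GCM LN18. Means of the 10 astrocyte markers ran from 3.20 to 3.26 over the 9 arrays, below the median signal of every array. Lists for the oligodendrocyte lineage (8 of 10 measured), neurons (8), fibroblasts and endothelium (10) and monocytes and dendritic cells (6 of 10) lay between 2.93 and 3.82, with none of their genes past the test. The 8 markers of border macrophages had array means of 5.59 to 5.69, but their untreated means ran from 2.38 (Lyve1) to 10.84 (Ms4a7). Mrc1, at 9.25, alone was past the test, in GCM LN18 (log2 fold change -0.25, limma adjusted p = 0.0375, with the replicate block 0.182), and it differed by -0.27 in GCM U87 (0.0559). Pf4, at 8.90 to 9.06 on untreated arrays, differed by 0.27 in GCM LN18 (0.0589) and 0.22 in GCM U87 (0.15) without passing. Its treated arrays all lay above the untreated ones. Over the list, 3 genes had every GCM LN18 array above the untreated ones and 1 below, and in GCM U87 1 and 1. Lyve1, Ms4a7 and Pf4 were named after their values were seen. The part of these lists in the results was not tested. In bulk RNA such as this, fewer cells of a type and less RNA per cell cannot be told apart.

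The deposited values are log2 signals, and a difference of 1 between them is a doubling. For all probe sets the 3 arrays of each replicate number had the same mean, within 1e-06, so the values hold 4 residual degrees of freedom where a fit of group means alone counts 6. The p-values of that fit are therefore too small, and beside a named call that was lost once the replicate number entered the model as a block, the adjusted p of that blocked fit is given. All 95% confidence intervals and standard errors (SE) come from the fit with the block. Differences between replicate numbers that all 3 groups share are absent from these values. The SDs, ranges and overlaps of groups given below therefore leave such differences out. Both media were compared with the same 3 control arrays.

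Of the members measured, Clec7a fell in microglia treated with GCM LN18, to 0.821 of the untreated level (limma adjusted p = 0.0157, with the replicate block 0.106), and no other member passed the test in either medium. Cst7 was lower by more, to 0.674 in GCM LN18 and 0.637 in GCM U87, but its replicates spread widely and it did not pass. Lgals3 was lower by a small step in both media, and Gpnmb, Trem2, Tyrobp, Cd9 and Lpl stayed within 0.12 of the untreated mean on the log2 scale.

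**Figure D1:**
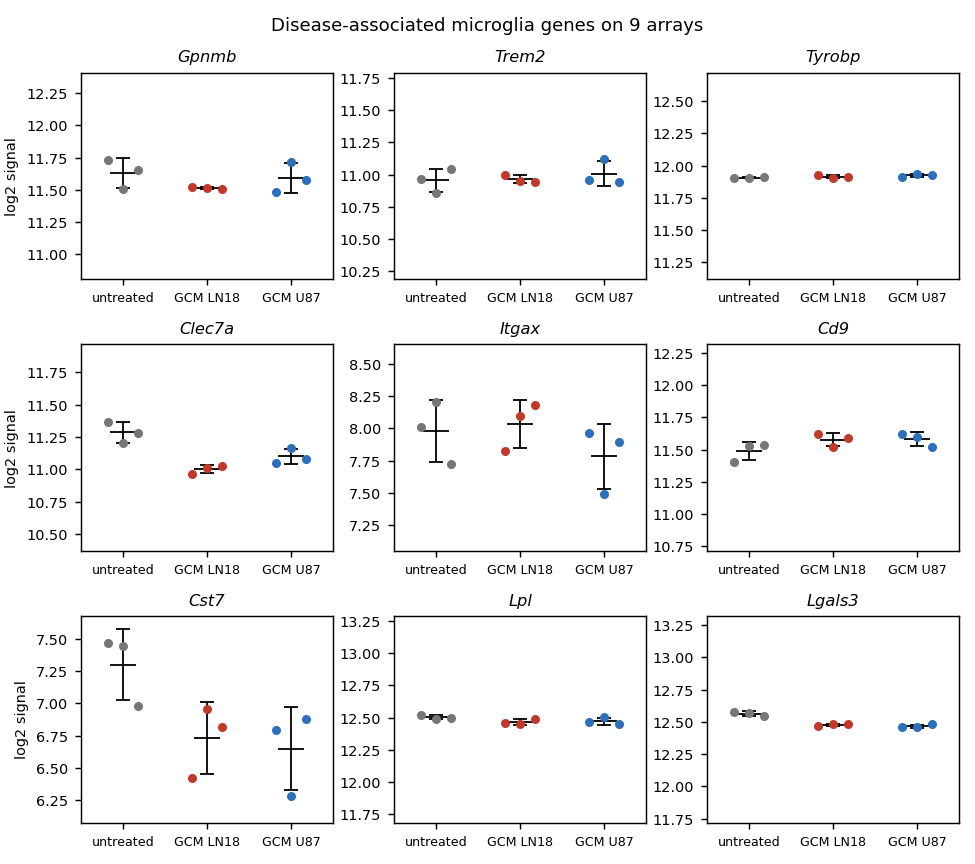
Log2 signal of the 9 measured members (vertical axis, the same span in every panel) on the arrays of untreated microglia, GCM LN18 and GCM U87 (horizontal axis). Points are arrays in the order of their replicate numbers, horizontal marks are group means and bars are ± 1 SD (n = 3). Treated Clec7a, Cst7 and Lgals3 points all lie below the untreated ones, as was so for 12.8% of all genes in GCM LN18 and 10.3% in GCM U87.

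Gpnmb encodes a transmembrane glycoprotein of lysosomes and the cell surface. Its log2 signals were 11.73, 11.51 and 11.65 in untreated microglia, 11.52, 11.51 and 11.51 in GCM LN18, and 11.48, 11.72 and 11.58 in GCM U87. The lowest untreated array lay within the treated ranges, so groups overlapped. The difference from untreated microglia was -0.12 in GCM LN18 (95% confidence interval -0.31 to 0.07, adjusted p = 0.383, limma) and -0.04 in GCM U87 (-0.23 to 0.15, adjusted p = 0.810).

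Among 6115 genes with a mean log2 signal of at least 6, those whose values followed Gpnmb most closely over the 9 arrays were Oxr1 (Pearson r 0.987, Spearman rank correlation 0.883), Mospd2 (0.984 and 0.9) and Lamp2 (0.980 and 0.883). Lamp2 encodes a lysosomal membrane protein. The arrays share their normalization and their equal replicate means, and these correlations are a description. Oxr1 itself differed between GCM LN18 and untreated microglia by -0.12 (limma adjusted p = 0.366).

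Trem2, the receptor, was measured by a bright probe set at 10.97, 10.86 and 11.04 in untreated microglia, 11.00, 10.95 and 10.94 in GCM LN18, and 10.96, 11.12 and 10.94 in GCM U87. The groups overlapped throughout. Its differences were 0.0081 in GCM LN18 (-0.16 to 0.18, limma adjusted p = 0.961) and 0.05 in GCM U87 (-0.12 to 0.22, adjusted p = 0.706). Another probe set of Trem2 was dim, with a mean of 3.44, and differed by -0.17 and -0.08.

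Tyrobp, its adaptor, had the narrowest range of the members, 0.04 over the 9 arrays. Untreated microglia gave 11.90, 11.90 and 11.91, GCM LN18 11.93, 11.91 and 11.91, and GCM U87 11.91, 11.94 and 11.92. All GCM U87 arrays lay above the untreated ones, as was so for 1503 of all 17097 genes. The mean difference was only 0.02 (-0.10 to 0.14, limma adjusted p = 0.795). In GCM LN18 it was 0.009 (-0.11 to 0.13, adjusted p = 0.908). The highest signal of any probe set was 12.88, and the signals of Lpl and Lgals3 lay nearer to it than those of Tyrobp. Whether signals near the top of the scale hide differences was not tested for any of these genes.

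Clec7a (Dectin-1) is a lectin receptor for fungal glucans that signals through Syk without needing Tyrobp. Its log2 signals were 11.37, 11.21 and 11.28 in untreated microglia, 10.96, 11.01 and 11.03 in GCM LN18, and 11.05, 11.17 and 11.08 in GCM U87. The 3 groups did not overlap: untreated arrays were highest, those of GCM U87 came next and those of GCM LN18 were lowest. Clec7a fell by 0.28 in GCM LN18 (SE 0.066, 95% confidence interval -0.44 to -0.13), with an adjusted p of 0.0157 in limma and of 0.106 with the replicate block. The call was also lost without GCM LN18 replicate 1 (adjusted p = 0.0672) and without GCM LN18 replicate 2 (0.0598). In GCM U87 the difference was -0.19 (-0.34 to -0.03) and did not pass the test (adjusted p = 0.116, with the block 0.460).

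Itgax (CD11c), the integrin alpha chain by which disease-associated microglia are often sorted, lay at 8.01, 8.21 and 7.72 in untreated microglia. GCM LN18 gave 7.82, 8.10 and 8.18, and GCM U87 7.96, 7.49 and 7.89. The groups overlapped, with a range of 0.71 over the 9 arrays. Differences were 0.05 in GCM LN18 (-0.34 to 0.44, limma adjusted p = 0.887) and -0.20 in GCM U87 (-0.59 to 0.19, adjusted p = 0.553).

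Cd9, a tetraspanin that organises membrane proteins, gave 11.40, 11.53 and 11.53 in untreated microglia, 11.62, 11.52 and 11.59 in GCM LN18, and 11.62, 11.60 and 11.52 in GCM U87. Treated arrays reached higher values but overlapped with the untreated ones. The difference was 0.09 in both media, with intervals of -0.06 to 0.24 in each (limma adjusted p = 0.366 in GCM LN18 and 0.383 in GCM U87).

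Cst7 encodes cystatin F, an inhibitor of lysosomal cysteine proteases. Its log2 signals were 7.47, 7.44 and 6.98 in untreated microglia, 6.42, 6.95 and 6.82 in GCM LN18, and 6.79, 6.28 and 6.88 in GCM U87. Untreated arrays were all above the treated ones, though untreated replicate 3, at 6.98, lay close to GCM LN18 replicate 2, at 6.95. The range over the 9 arrays, 1.19, was the widest of the members. Differences were -0.57 in GCM LN18 (SE 0.21, 95% confidence interval -1.05 to -0.08) and -0.65 in GCM U87 (SE 0.21, -1.14 to -0.16). Neither passed the test over all genes, with limma adjusted p = 0.139 in GCM LN18 (0.319 with the block) and 0.142 in GCM U87 (0.417).

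Lpl, the lipase that releases fatty acids from triglycerides of lipoproteins, gave 12.52, 12.49 and 12.50 in untreated microglia, 12.45, 12.45 and 12.49 in GCM LN18, and 12.46, 12.50 and 12.45 in GCM U87. The groups overlapped. Differences were -0.04 in GCM LN18 (-0.16 to 0.08, limma adjusted p = 0.565) and -0.03 in GCM U87 (-0.15 to 0.09, adjusted p = 0.675). Another Lpl probe set, with a mean of 11.83, differed by -0.0066 and 0.02.

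Lgals3 (galectin-3), a lectin for galactose-bearing sugars that gathers at damaged lysosomes, gave 12.58, 12.57 and 12.55 in untreated microglia. GCM LN18 gave 12.47, 12.48 and 12.48, and GCM U87 12.46, 12.46 and 12.48. Replicates were tight in the deposited values, and the treated arrays were all lower than the lowest untreated one. Differences were -0.09 in GCM LN18 (-0.20 to 0.03, limma adjusted p = 0.165, with the block 0.565) and -0.10 in GCM U87 (-0.22 to 0.02, adjusted p = 0.165, with the block 0.629). With variances that follow the signal level (limma's trend and robust options) Lgals3 passed in both media, at adjusted p = 0.0314 and 0.0425. That fit also left out the replicate block, so its p-values are too small as well.

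Set against all genes tested, 1 of 9 members was lower and 0 were higher in GCM LN18, where 2.64% of genes were called lower and 2.59% higher. With the replicate block 0 members were called, beside 0.877% of genes. In GCM U87 limma called 0 members, beside 0.708% of genes lower and 0.807% higher, and 0.0468% of genes with the block. At an unadjusted p under 0.05, 3 members were lower and 0 higher in each medium, namely Clec7a, Cst7 and Lgals3. Over all genes, the same threshold took in 11% lower and 9.63% higher in GCM LN18, and 9.05% lower and 7.99% higher in GCM U87. The arrays of these 3 did not overlap with the untreated ones, as was so downwards for 12.8% of all genes in GCM LN18 and 10.3% in GCM U87. The median log2 fold change of the members was -0.04 in each medium, and that of all genes was -0.0037 in GCM LN18 and -0.0026 in GCM U87.

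**Figure D2:**
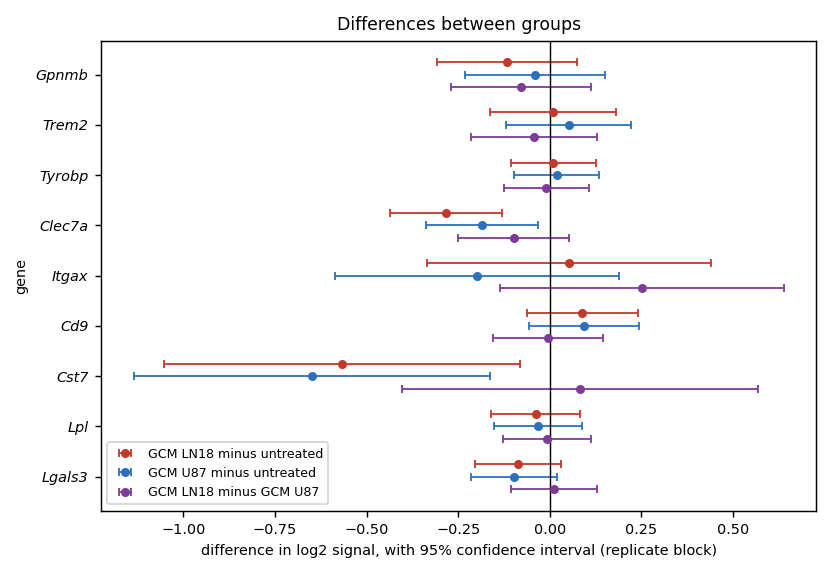
Difference in log2 signal between groups (horizontal axis) for each member (vertical axis), with 95% confidence intervals from the fit with the replicate block. Intervals of Clec7a and Cst7 lie below 0 for both media against untreated microglia, before any adjustment for the number of genes, and all 9 intervals for GCM LN18 against GCM U87 include 0.

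Between the media, 0 of 9 members passed the test in limma, and 0 did so at an unadjusted p under 0.05, beside 12% of all genes. Over all genes 0.00585% were called, which was 1 gene, and 0% with the replicate block. For Clec7a, whose arrays in the media did not overlap, the GCM LN18 level was lower than the GCM U87 level by 0.10 (95% confidence interval -0.25 to 0.05, adjusted p = 0.484). Over all 17097 genes, 1450 had every GCM LN18 array below those of GCM U87. For Cst7 the difference was 0.08 (-0.40 to 0.57, adjusted p = 0.899) and for Gpnmb -0.08 (-0.27 to 0.11, adjusted p = 0.684). Itgax had the largest difference of the members, 0.25 (-0.14 to 0.64, adjusted p = 0.549). The intervals of Trem2, Tyrobp, Cd9, Lpl and Lgals3 lay between -0.21 and 0.15.

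Other genes of the disease-associated programme were taken as a list of 38, of which 32 were measured. In GCM LN18, 1 was higher and 4 were lower, and in GCM U87 1 was higher and 2 were lower, with median log2 fold changes of -0.04 in both. Of all genes, 2.59% were called higher and 2.64% lower in GCM LN18, and 0.807% and 0.708% in GCM U87. Ch25h, which makes an oxysterol from cholesterol, rose in both media, from 9.04, 9.64 and 9.42 in untreated microglia to 10.57, 10.53 and 10.29 in GCM LN18 and 10.63, 10.08 and 10.52 in GCM U87. Treated arrays were all above untreated ones. The log2 fold change was 1.09 in GCM LN18 (adjusted p = 0.0093, limma, and 0.0473 with the block) and 1.04 in GCM U87 (0.0286, with the block 0.161).

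The chemokine genes Ccl3 and Ccl4 fell in GCM LN18, by 0.42 (limma adjusted p = 0.0163, with the block 0.0825) and 0.50 (0.0233, with the block 0.0926). Ccl3 also fell in GCM U87, by 0.40 (0.0451, with the block 0.220), whereas the difference of Ccl4 there, -0.35, did not pass (0.123). Slamf8, an immune receptor of the SLAM family, fell by 0.90 in GCM LN18 (0.0254, with the block 0.0877) and by 0.99 in GCM U87 (0.0404, with the block 0.186). Atp6v0d2, a subunit of the proton pump that acidifies lysosomes, fell by 0.52 in GCM LN18 (0.0098, with the block 0.0565) and differed by -0.36 in GCM U87 (0.0749). Apoe, the lipid carrier of the programme, named after its values were seen, lay between 12.27 and 12.44 on all arrays, with differences of 0.02 and 0.05.

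**Figure D3:**
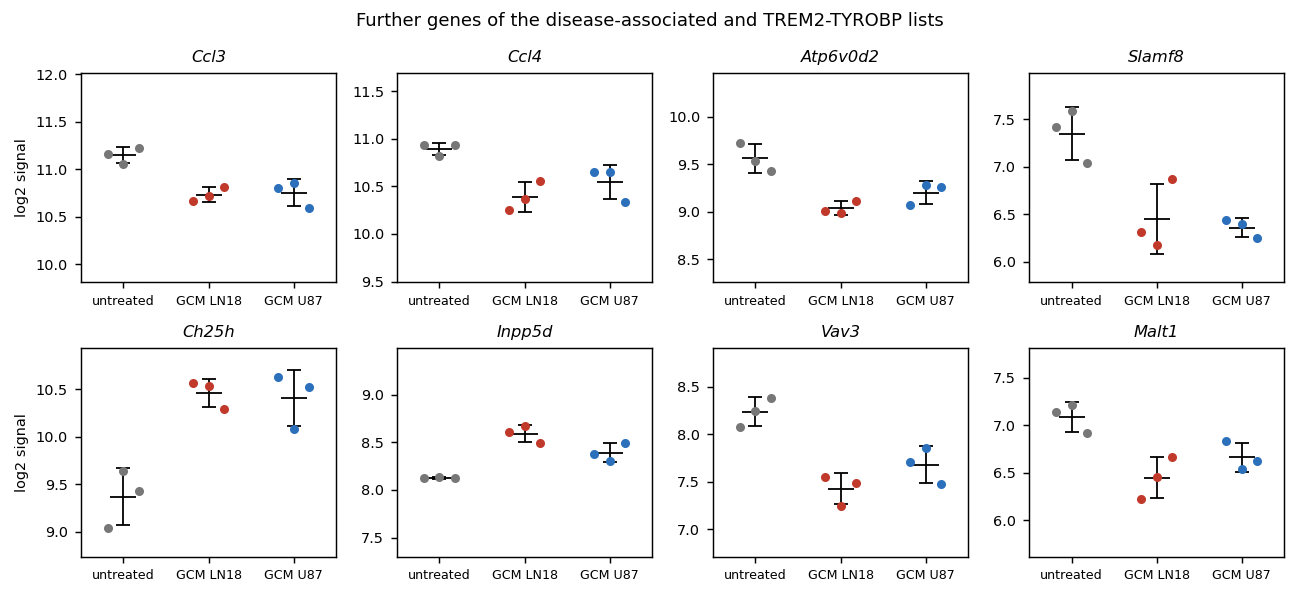
Log2 signal (vertical axis, the same span in every panel) of 5 further disease-associated genes and 3 genes of TREM2-TYROBP signalling on the arrays of untreated microglia, GCM LN18 and GCM U87 (horizontal axis). All 8 were past the test in GCM LN18, points are arrays and bars are ± 1 SD around the group mean (n = 3). Ch25h and Inpp5d points are higher in both media than in untreated microglia, and the other 6 are lower.

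For signalling from Trem2 and Tyrobp, 22 of 26 listed genes were measured. In GCM LN18, 1 was higher and 3 were lower, with 1 of each left with the replicate block, and in GCM U87 0 were called by limma, with 4 higher and 5 lower at an unadjusted p under 0.05, beside 7.99% and 9.05% of all genes. Limma called 2.59% of all genes higher and 2.64% lower in GCM LN18. Inpp5d (SHIP1), a lipid phosphatase that dampens this pathway, rose from 8.12, 8.14 and 8.13 in untreated microglia to 8.61, 8.67 and 8.49 in GCM LN18, by 0.46 (adjusted p = 0.0039, with the block 0.0383). GCM U87 arrays, at 8.38, 8.30 and 8.49, also lay above untreated ones without passing the test (0.0685). Vav3, a guanine nucleotide exchange factor, fell by 0.81 in GCM LN18 (0.0064, with the block 0.0391) and differed by -0.56 in GCM U87 (0.0558). Bcl10 and Malt1, which form the complex that carries the Syk signal to NF-κB, fell in GCM LN18 by 0.37 (0.0139, with the block 0.0825) and 0.64 (0.0203, with the block 0.0825). Syk itself, named after its values were seen, had a brightest probe set at only 2.97 to 3.30, below the array medians, so its level is not known from these arrays.

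Partners and regulators of Gpnmb and Spp1 numbered 21, of which 18 were measured. In GCM LN18, 3 were higher and 2 lower (1 of each with the replicate block), and in GCM U87 2 were higher and 1 lower (0 with the block). The shares of all genes called higher and lower were 2.59% and 2.64% in GCM LN18, and 0.807% and 0.708% in GCM U87. Itgb5 and Itgav, the chains of an integrin that binds osteopontin, rose in both media. Itgb5 rose by 0.79 in GCM LN18 (limma adjusted p = 0.0014, with the block 0.0152) and 0.71 in GCM U87 (0.0045, with the block 0.0603), and Itgav by 0.57 (0.0176, with the block 0.0793) and 0.54 (0.0459, with the block 0.210). Cd44, another osteopontin receptor, rose by 0.20 in GCM LN18 (0.0422, with the block 0.228). Itga8, a chain with an untreated mean of only 5.19, fell by 0.42 in GCM LN18 (0.0032, with the block 0.0379) and 0.26 in GCM U87 (0.0473, with the block 0.285). Tfec, a transcription factor of the MITF family, fell by 1.14 in GCM LN18 (0.0272, with the block 0.0913) and differed by -0.80 in GCM U87 (0.139).

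**Figure D4:**
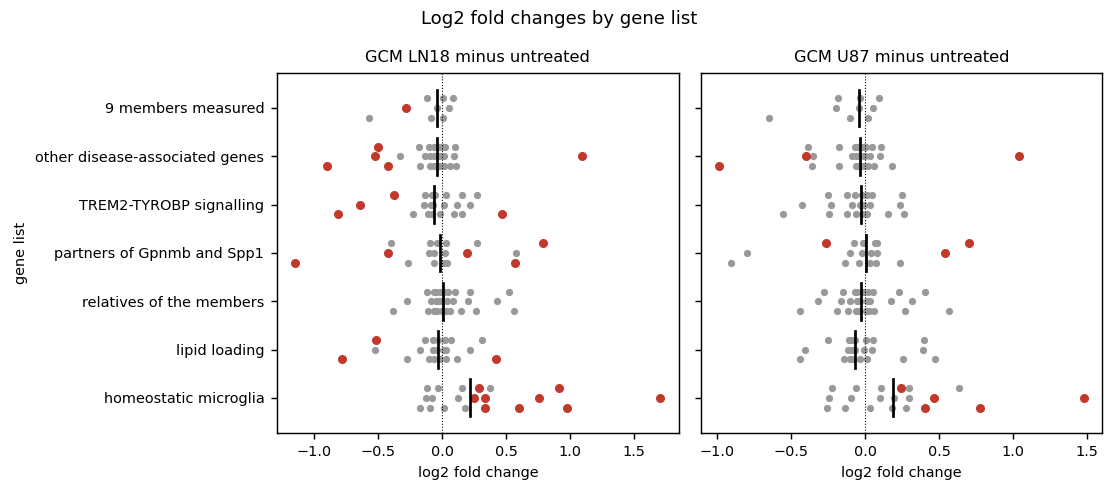
Log2 fold change of each measured gene (points, horizontal axis) by gene list (vertical axis) in GCM LN18 (left) and GCM U87 (right) against the same 3 untreated arrays. Red points passed the test without the replicate block, grey points did not, and black bars are list medians. Medians of the members lie at -0.04 in both panels and those of homeostatic microglia at 0.21 and 0.19.

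Relatives of the members (other cystatins and cathepsins, integrins, lectins, tetraspanins, galectins and lipases) were listed as 33 genes and measured for 28. Limma called 0 of them in either medium, with 4 higher and 1 lower at an unadjusted p under 0.05 in GCM LN18 (all genes, 9.63% and 11%) and 3 and 3 in GCM U87 (7.99% and 9.05%). Of 26 genes of lipid loading, 22 were measured, with 1 higher and 2 lower in GCM LN18 (0 with the replicate block) and 0 in GCM U87 (2 higher and 4 lower unadjusted). Among all genes, 2.59% were called higher and 2.64% lower in GCM LN18. Angptl4, an inhibitor of Lpl with an untreated mean of only 4.58, rose by 0.42 in GCM LN18 (adjusted p = 0.0378, with the block 0.142), while the nuclear receptor Pparg fell by 0.52 (0.0099, with the block 0.0568) and the fatty acid carrier Fabp4 by 0.78 (0.0294, with the block 0.101). In GCM U87 these differed by 0.40, -0.25 and -0.44 without passing.

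Homeostatic genes, which go down when the disease-associated programme comes up in diseased tissue, were measured for 20 of 22. In GCM LN18 9 were higher (5 with the block), in GCM U87 5 (2 with the block), and 0 were lower in either, with medians of 0.21 and 0.19. Over all genes, limma called 2.59% higher and 2.64% lower in GCM LN18, and 0.807% and 0.708% in GCM U87. With the block, 0.877% and 0.0468% of all genes were called in the 2 media, in either direction. At an unadjusted p under 0.05 in limma, 10 were higher and 1 lower in GCM LN18 (all genes, 9.63% and 11%). In GCM U87 8 were higher and 4 lower at that threshold (all genes, 7.99% and 9.05%). These 4, named after their values were seen, were Entpd1 (-0.26), Sall1 (-0.24), P2ry13 (-0.22) and Tgfb1 (-0.13), with limma adjusted p from 0.0719 to 0.199. Olfml3 rose by 1.70 and 1.48, Cx3cr1, the fractalkine receptor, by 0.97 and 0.78, and the TGFβ receptor Tgfbr1 by 0.60 and 0.47 (with the block, adjusted p = 0.190 in GCM U87). Tmem119 rose by 0.91 and Gpr34 by 0.75 (with the block 0.120) in GCM LN18. Tmem119 was dim, with means of 3.88 in untreated microglia and 4.79 in GCM LN18. Gpr34 lay at 5.01 and 5.77, beside a median level of 4.34 over all genes. Fcrls rose by 0.25 in GCM LN18 (adjusted p = 0.0115, limma, with the block 0.106) and by 0.41 in GCM U87 (0.0045, with the block 0.0838). Beside these rises, the 9 members measured included 0 that passed the test upwards in either medium.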

How the data were processed

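Primary murine microglia (3 arrays per group) were untreated or kept for 6 h in GCM LN18 or GCM U87. The authors deposited normalized log2 signals for 45141 probe sets. The study's methods name RMA for array data sets taken from elsewhere. Its use on these arrays is not given in the sources used here, and the submitters' notes name limma without a version. With arrays, depth does not arise and the number of arrays limits the precision.

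The 104 control probe sets were left out. A single symbol was annotated to 28898 probe sets, several to 551 and none here to 15588. Symbols were updated by gene identifier to RefSeq for 28689. The probe set with the highest mean over the 9 arrays stood for each of 17097 genes, 11 probe sets belonging to the members. Linear models with 1 mean per group over all arrays were fitted in limma 3.58.1 (R 4.3.3) and p-values adjusted by Benjamini-Hochberg over all genes, with genes called under 0.05. The fits were tested on simulated data. Figures were drawn with matplotlib 3.10.9 in Python 3.11.15.

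Members and the 13 gene lists were chosen with earlier results of these data known. Beyond the members, genes named are those called in either medium, at most 4 higher and 4 lower per list and medium, and the 3 most like Gpnmb among genes with a mean of at least 6. Further genes of the marker lists are named only where the labelled cell type was checked. Motifs were searched in the 250 bases upstream of gene starts in RefSeq on both strands.

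Replicate numbers come from the sample labels, which do not say that a number marks 1 culture across groups. Deviations of same-numbered arrays from their group means correlated at -0.72 to -0.06, as the equal means of the replicate numbers force. Alternatives were the replicate block, trend and robust variances, a filter on genes with a mean under 5 in all groups, the mean of a gene's probe sets, all probe sets tested, the compared groups alone, quantile normalization, median centring and each array left out.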

Additional observations from a re-analysis of the deposited data

How the results depend on the processing

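With the replicate block, 0 members were called in GCM LN18 in place of 1. With trend and robust variances, fitted without the block, 2 were called there (Clec7a and Lgals3) and 1 in GCM U87 (Lgals3) in place of 0. With each array left out in turn, 0 to 1 members were called in GCM LN18, 0 without GCM LN18 replicate 1 or 2, and 0 in GCM U87 throughout. Between the media 0 were called under every alternative run. Clec7a in GCM LN18 was called in 14 of 17 alternatives, at log2 fold changes of -0.32 to -0.24. The block ended no other call of a member, and Cst7 stayed below 0 under all 17 alternatives in both media without a call (adjusted p from 0.0826 to 0.361 in GCM LN18 and from 0.0840 to 0.417 in GCM U87).

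Small differences that did not pass changed sign. With the mean of probe sets, Trem2 came to -0.08 in GCM LN18 and -0.012 in GCM U87, and with quantile normalization Lpl in GCM U87 came to 0.0092. With arrays left out, the range in GCM LN18 was -0.040 to 0.050 for Trem2 and -0.076 to 0.16 for Itgax. In GCM U87 it was -0.0047 to 0.093 for Trem2 and -0.10 to 0.015 for Gpnmb. Between the media it was -0.036 to 0.025 for Cd9, -0.10 to 0.24 for Cst7, -0.020 to 0.0083 for Lpl and -0.076 to 0.013 for Trem2. The cause was not tested.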
